A study of Mus musculus with 8 samples.

Results

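The genes described here encode proteins of DNA repair and of damage bypass, and they were measured in HM-1 tumours of mice treated with anti-VEGF antibody or with rat IgG. They were chosen by a pattern on the gene symbol that takes the families of break sensing, recombination, end joining, excision and mismatch repair, translesion synthesis, the replicative polymerases with their clamp loader, telomere binding and PARP. Of 11667 genes with a value on the arrays, 43 matched, each through 1 probe set that carries a single symbol. The mouse RefSeq gene table holds 121 symbols of this pattern, so most of the pathway was not analysed here, including *Atm*, *Atr* and *Parp1*. HM-1 is a mouse ovarian cancer cell line, injected under the skin of the right flank of B6C3F1 mice, so the tumours grew outside the ovary and came from a single line. The anti-VEGF group had 4 tumours of mice injected with an antibody against vascular endothelial growth factor, and the control group had 4 tumours of mice injected with rat IgG isotype control. By the labels injections started 3 days after the cells were given, where the study's methods name another day, and tumours were taken at a long diameter of 1.5 cm. RNA of whole tumours was hybridised with 1 array per tumour, and the labels do not say that every tumour came from a separate mouse, so the *p*-values measure the spread between these samples.

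Cells carry separate repair routes for different lesions. Homologous recombination and end joining close double-strand breaks, mismatch repair corrects copying errors, excision repair removes damaged bases or stretches around bulky lesions, and translesion polymerases copy past lesions that stop the replication fork. Many of these genes are transcribed mainly in dividing cells through E2F factors. In human cell culture, severe hypoxia is known to lower transcripts of several repair genes, among them that of BRCA1. Blocking VEGF removes a growth signal of tumour vessels.

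Values were spread more widely on the anti-VEGF arrays than on the control arrays, which bears on every result here. The standard deviation over genes was between 1.991 and 2.083 on the anti-VEGF arrays, against 1.117 to 1.662 on the control arrays. Genes of high signal tended to be higher and genes of low signal lower in anti-VEGF tumours. The median log2 fold change, anti-VEGF over control, was -1.07 in the lowest tertile of genes by mean level, -0.44 in the middle and 0.60 in the highest. Results are therefore given on the deposited log2 scale and, in most cases, again after quantile normalisation, which gives all arrays the same distribution of values. Control 3 had the smallest spread and the lowest correlations with the other arrays, between 0.7737 and 0.8694. Genes of pancreatic acinar cells also differed widely between the tumours. The mean log2 level of the 21 measured of 30 was 9.90, 4.23, 4.69 and 6.92 in anti-VEGF tumours 1 to 4, against 11.26, 10.41, 9.54 and 11.09 in control tumours 1 to 4. All 21 fell, 15 of them also after quantile normalisation, and their part in the results below was not tested. Of the epithelial and ovarian cancer markers 8 of 12 were measured, with 4 rises, 1 fall and a median of 0.14. The mesothelin gene *Msln* and the keratins *Krt8*, *Krt18* and *Krt19* rose by 1.39, 0.86, 0.64 and 0.69, and *Muc1* fell by 0.90, while *Cdh1*, *Epcam* and *Cldn4* had -0.55, -0.48 and -0.37 and did not pass. The 4 that rose were in the highest tertile, where 51.3% of all genes rose on the deposited scale and 4.55% fell. Genes of the same level, within 0.25 log2 units, had medians of 1.02 for *Msln* and 0.37, 0.31 and 0.98 for the keratins. For *Muc1* that median was -0.12. After quantile normalisation *Krt8* alone of the 8 passed in limma, at 0.82. Under cyclic loess, another normalisation between arrays, *Krt8* had 0.07 and did not pass (adjusted *p* = 0.87, limma). *Muc1* alone of the 8 then passed, at -0.86.

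Repair genes were mostly higher in anti-VEGF tumours. On the deposited scale 27 of the 43 rose and 3 fell in limma at a Benjamini-Hochberg adjusted *p* under 0.05, and 13 did not pass. That is 62.8% rising and 6.98% falling, where 19.1% of all 11667 genes rose and 46.6% fell. The rises ran from 0.65 to 1.47 on the log2 scale, and the median log2 fold change of the 43 was 0.86, against -0.44 over all genes. Level bears on this contrast, as 28 of the 43 were in the highest tertile. There 51.3% of all genes rose, 4.55% fell and the median was 0.60. Of the 28 members there, 22 rose and none fell, with a median of 1.03. After quantile normalisation 17 of the 43 rose, or 39.5%, and none fell, where 7.47% of all genes rose and 4.45% fell. At an unadjusted *p* under 0.05, 29 were then higher and 1 lower, and the median was 0.60, against -0.03 over all genes. All 17 were also among the 27, and the same 17 rose after cyclic loess, which brought 21 rises and no fall, with 3 members lower at an unadjusted *p* under 0.05. The calls after quantile normalisation depended on single tumours. Without anti-VEGF 2, 3 or 4 none of the 43 passed in limma, the smallest adjusted *p* being 0.0815, 0.0818 and 0.0824, although 22 or 23 of them had an unadjusted *p* under 0.05. In these 3 fits at most 1 gene of the whole table passed. Without control 1 the count was 7 and without anti-VEGF 1 it was 13. In whole tumours a change in the number of cells of a type and a change in RNA per cell cannot be told apart.

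**Figure D1:**
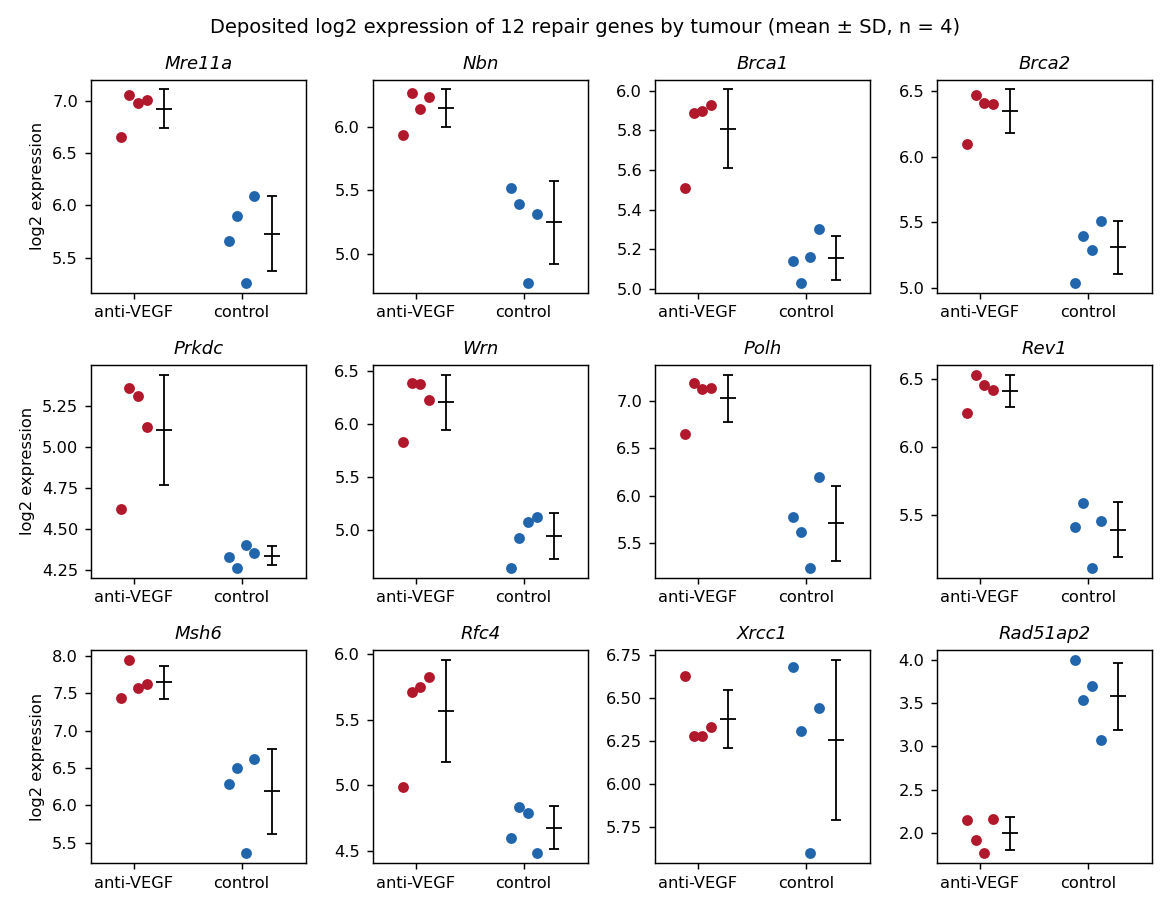
log2 level of 12 repair genes on the deposited scale, with anti-VEGF tumours left of control tumours, 1 point per tumour and the group mean ± SD beside the points (each panel has its own axis). In *Mre11a*, *Brca2*, *Polh* and *Msh6* every anti-VEGF tumour lies above every control tumour, whereas in *Rad51ap2* every one lies below.

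The tumours themselves separated in most members. On the deposited scale 28 of the 43 had all anti-VEGF tumours above all control tumours, where 19.8% of all genes did, 3 had them all below, where 41.5% of all genes did, and 12 overlapped. The 28 were the 27 that rose and *Fancf*, which did not pass the test. After quantile normalisation 23 of the 43 had all anti-VEGF tumours above all control tumours, where 13.5% of all genes did, and 2, *Fancf* and *Ung*, had them all below, where 11.9% did. *Fancf* thus lay on opposite sides on the 2 scales. The shares of all genes given here were not counted by level. Most of the 43 were in the highest tertile, where genes tended to be higher in anti-VEGF tumours on the deposited scale. The mean log2 level over the 43 was 6.02, 6.18, 6.18 and 6.18 in anti-VEGF tumours 1 to 4, against 5.58, 5.62, 5.19 and 5.66 in control tumours 1 to 4. Anti-VEGF 1 was the lowest of its group in 27 members, and control 3 was the lowest of its group in 31. Control 3 was also low over all genes of the highest tertile by level. Their mean was 6.74, 6.76, 6.00 and 6.89 in control tumours 1 to 4, against 7.17, 7.14, 7.17 and 7.20 in anti-VEGF tumours. The acinar level of anti-VEGF 1 lay within the range of the controls, and the part of that level in the repair values was not tested. Anti-VEGF 1 was above every control tumour in 30 of the 43 on the deposited scale and in 26 after quantile normalisation, where it was so in 25.4% and 18.2% of all genes. Control tumours varied more, with a larger standard deviation than anti-VEGF tumours in 38 of the 43. The median standard deviation was 0.15 in anti-VEGF tumours and 0.33 in control tumours. For the lowest tumour and the larger standard deviation, shares over all genes were not counted, so these may be traits of the arrays.

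Upstream sequences of some genes that the results turn on are shown, and their part in the changes was not tested. They come from the RefSeq table of build GRCm38.p6, which held 33 promoters of 30 members, each from 250 bases before to 50 bases after an annotated start. Capitals mark the E2F words TTTCCCGC, TTTGGCGC, TTTCGCGC and TTTGCCGC and the core ACGTG of the hypoxia response element, each on either strand. *Brca1* and *Brca2* act in recombination, *Msh6* in mismatch repair and *Pole2* in replication, and all 4 rose. *Rad51c*, also of recombination, did not pass the test.
Brca1, chr11:101551906-101552205, minus strand: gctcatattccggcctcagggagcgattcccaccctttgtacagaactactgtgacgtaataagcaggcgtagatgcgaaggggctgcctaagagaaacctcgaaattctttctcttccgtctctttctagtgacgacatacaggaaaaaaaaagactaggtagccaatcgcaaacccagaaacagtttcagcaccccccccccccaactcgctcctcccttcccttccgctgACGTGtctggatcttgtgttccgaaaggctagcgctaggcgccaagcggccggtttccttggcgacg
Brca2, chr5:150522371-150522670, plus strand: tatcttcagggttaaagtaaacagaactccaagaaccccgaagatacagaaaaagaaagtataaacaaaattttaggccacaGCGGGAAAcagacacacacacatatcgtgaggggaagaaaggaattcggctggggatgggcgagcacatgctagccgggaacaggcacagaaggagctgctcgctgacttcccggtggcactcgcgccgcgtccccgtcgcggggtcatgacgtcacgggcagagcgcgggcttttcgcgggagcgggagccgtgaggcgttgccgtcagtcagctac
Msh6, chr17:87974800-87975099, plus strand: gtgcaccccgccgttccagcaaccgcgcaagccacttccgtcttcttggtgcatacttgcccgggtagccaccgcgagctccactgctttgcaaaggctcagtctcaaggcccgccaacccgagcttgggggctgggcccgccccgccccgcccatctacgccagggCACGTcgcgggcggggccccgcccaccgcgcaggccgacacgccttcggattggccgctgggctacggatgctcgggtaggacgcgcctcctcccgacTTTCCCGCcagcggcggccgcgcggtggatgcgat
Pole2, chr12:69228141-69228440, minus strand: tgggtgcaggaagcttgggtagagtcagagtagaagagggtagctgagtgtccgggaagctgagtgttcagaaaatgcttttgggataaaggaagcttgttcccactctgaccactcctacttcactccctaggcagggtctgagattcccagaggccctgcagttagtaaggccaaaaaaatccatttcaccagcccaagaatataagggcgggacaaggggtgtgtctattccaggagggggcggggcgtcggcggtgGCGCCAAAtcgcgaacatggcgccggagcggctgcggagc
Rad51c, chr11:87404457-87404756, minus strand: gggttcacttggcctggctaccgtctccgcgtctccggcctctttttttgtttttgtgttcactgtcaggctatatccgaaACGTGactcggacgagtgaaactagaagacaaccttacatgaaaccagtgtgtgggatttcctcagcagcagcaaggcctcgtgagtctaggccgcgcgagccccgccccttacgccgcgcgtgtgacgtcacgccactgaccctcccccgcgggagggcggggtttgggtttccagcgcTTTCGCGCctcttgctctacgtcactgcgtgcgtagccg
An E2F word stood in 7 of the 33 promoters, or 21.2%, where it stood in 2.26% of all 32851 promoters of the table. The 7 belong to 6 genes (*Brca2*, *Msh6*, *Pold3*, *Pole2*, *Rad51c* and *Terf2ip*), of which 5 rose on the deposited scale and 3 also after quantile normalisation. The core ACGTG stood in 11 of the 33, or 33.3%, against 19.6% of all promoters, and 8 of its 10 genes rose. The word CCAAT stood in 33.3% and GGGCGG in 66.7% of the member promoters, against 37.4% and 35.7% of all promoters, and 7 of 11 and 14 of 21 of their genes rose. After quantile normalisation 7 of the 10 genes with ACGTG, 5 of the 11 with CCAAT and 10 of the 21 with GGGCGG rose. Of all 30 members with a promoter in the table, 19 rose on the deposited scale and 13 after quantile normalisation. The promoters of the whole table were not matched to those of the members in base composition. These are matches of letters in a window, and a match is no evidence of binding.

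Genes that sense double-strand breaks and signal to the checkpoint rose in all 4 measured of 13. This and the role counts below stand beside a high share over all genes. On the deposited scale 51.3% of all genes rose in the highest tertile by level, which holds 28 of the 43 members. In the middle tertile 6.04% did. *Mre11a* encodes the nuclease of the complex that binds broken ends. Its log2 level was 6.65, 7.05, 6.98 and 7.01 in anti-VEGF tumours, against 5.66, 5.90, 5.26 and 6.09 in control tumours. The groups did not overlap, and the means were 6.92 ± 0.18 in anti-VEGF tumours and 5.73 ± 0.36 in control tumours (SD, *n* = 4 each), a log2 fold change of 1.19 with a standard error of 0.21 and an adjusted *p* = 0.00157 from limma. *Nbn*, its partner in that complex, had 5.94, 6.27, 6.14 and 6.24 in anti-VEGF tumours, against 5.52, 5.39, 4.77 and 5.31 in control tumours, and rose by 0.90 (adjusted *p* = 0.00361, limma). Both also passed after quantile normalisation, at 0.86 and 0.92. *Rad9a* and *Rad1* form the clamp that recruits checkpoint kinases, and rose by 1.07 and 0.66. *Rad1* rose where genes of the same level, within 0.25 log2 units, had a median of -0.12, and its quantile-normalised fold change was 0.71. *Rad9a* did not pass after quantile normalisation, with 0.60 and an adjusted *p* = 0.138 from limma.

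**Figure D2:**
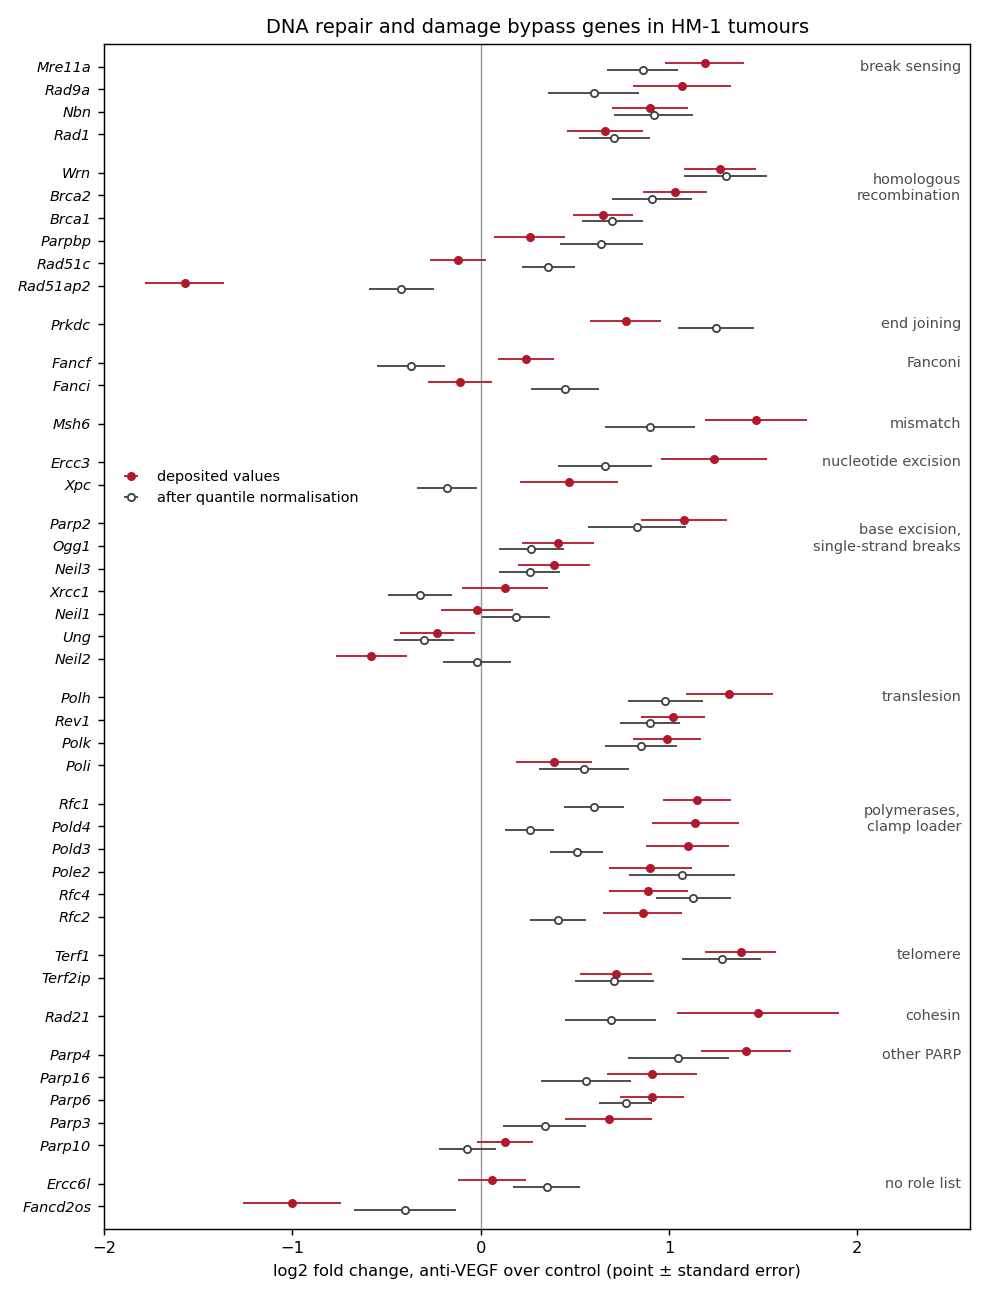
log2 fold change of the 43 genes, anti-VEGF over control, with its standard error, on the deposited scale (filled points) and after quantile normalisation (open points), by role from top to bottom. Most filled points lie right of 0, *Rad51ap2* is lowest at -1.57, and the highest is *Rad21* at 1.47.

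Among recombination genes 6 of 18 were measured, of which 3 rose, 1 fell and 2 did not pass. *Wrn* encodes the Werner helicase, which unwinds recombination and replication intermediates. Its log2 level was 5.83, 6.39, 6.38 and 6.23 in anti-VEGF tumours, against 4.64, 4.92, 5.08 and 5.12 in control tumours. The gap between the groups exceeded the spread within either, with a log2 fold change of 1.27 ± 0.19 (SE, adjusted *p* = 0.0011, limma) and 1.30 after quantile normalisation. *Brca2*, which helps to build the recombination filament on resected ends, had 6.10, 6.47, 6.41 and 6.40 in anti-VEGF tumours, against 5.04, 5.40, 5.29 and 5.51 in control tumours. It rose by 1.03 ± 0.17 (adjusted *p* = 0.00138, limma), and by 0.91 after quantile normalisation. *Brca1*, which acts at breaks ahead of *Brca2*, had 5.51, 5.89, 5.90 and 5.93 in anti-VEGF tumours, against 5.14, 5.03, 5.16 and 5.30 in control tumours. The groups did not overlap, though anti-VEGF 1 was near the controls, and the log2 fold change was 0.65 ± 0.16 (adjusted *p* = 0.0069, limma) and 0.70 after quantile normalisation. Genes of the same level as *Brca1* had a median of -0.04.

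*Rad51c*, which acts in strand exchange, had 4.47, 4.63, 4.68 and 4.65 in anti-VEGF tumours, against 4.84, 4.59, 4.71 and 4.77 in control tumours. These values overlapped, and the log2 fold change of -0.12 did not pass (adjusted *p* = 0.492, limma). *Parpbp*, known from human cells as an inhibitor of recombination, had a log2 fold change of 0.26, or 0.64 after quantile normalisation, and did not pass on either scale. *Rad51ap2* was at 2.15, 1.92, 1.77 and 2.16 in anti-VEGF tumours, against 4.0, 3.53, 3.70 and 3.08 in control tumours. It fell by 1.57 on the log2 scale (adjusted *p* = 0.000943, limma), where genes of its low level had a median of -1.27. After quantile normalisation the fold change was -0.42 and did not pass.

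*Prkdc*, the DNA-dependent kinase of end joining, was the only measured gene of 6 in that route. Its log2 level was 4.62, 5.36, 5.31 and 5.12 in anti-VEGF tumours, against 4.33, 4.26, 4.40 and 4.35 in control tumours. The groups did not overlap and the control tumours lay close together. The log2 fold change was 0.77 ± 0.19 (SE, adjusted *p* = 0.00627, limma) on the deposited scale and 1.25 after quantile normalisation, where genes of the same level had medians of -0.48 and -0.07. In the Fanconi route, which repairs crosslinks between strands, 2 of 10 were measured and neither passed. *Fanci* had a log2 fold change of -0.11 and *Fancf* one of 0.24, which turned to 0.45 and -0.37 after quantile normalisation.

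*Msh6*, which takes part in recognising mismatched bases, stood for mismatch repair as 1 of 9 genes. Its log2 level was 7.44, 7.95, 7.57 and 7.62 in anti-VEGF tumours, against 6.28, 6.50, 5.36 and 6.62 in control tumours. Control 3 was the lowest, and the other 3 controls were also below every anti-VEGF tumour. The log2 fold change was 1.46 ± 0.27 (SE, adjusted *p* = 0.00195, limma), and 0.90 after quantile normalisation. In nucleotide excision repair *Ercc3*, a helicase of transcription factor TFIIH, was at 7.38, 7.45, 7.66 and 7.62 in anti-VEGF tumours, against 5.92, 6.83, 5.60 and 6.80 in control tumours. It rose by 1.24 (adjusted *p* = 0.00407, limma), while its 0.66 after quantile normalisation did not pass. *Xpc*, which finds bulky lesions, overlapped between the groups at a log2 fold change of 0.47 and was at -0.18 after quantile normalisation.

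In base excision and single-strand break repair 7 of 9 were measured, of which 1 rose and 1 fell. *Parp2*, a polymerase of ADP-ribose activated by strand breaks, was at 6.76, 6.71, 6.84 and 6.79 in anti-VEGF tumours, against 5.54, 5.94, 5.10 and 6.21 in control tumours. It rose by 1.08 ± 0.23 (SE, adjusted *p* = 0.00335, limma) but did not pass after quantile normalisation, at 0.83. The glycosylase *Neil2* fell by 0.58 on the log2 scale (adjusted *p* = 0.0224, limma), which was close to the median of -0.57 for genes of its level, and had -0.02 after quantile normalisation. Its call was lost without anti-VEGF 2, 3 or 4 (adjusted *p* = 0.0563, 0.0649 and 0.0608, limma). *Xrcc1*, the scaffold of single-strand break repair, was at 6.63, 6.28, 6.28 and 6.33 in anti-VEGF tumours, against 6.68, 6.31, 5.60 and 6.44 in control tumours, so the groups overlapped at a log2 fold change of 0.13, or -0.32 after quantile normalisation. The glycosylases *Ogg1*, *Neil3*, *Neil1* and *Ung*, which remove oxidised bases or uracil, had log2 fold changes of 0.41, 0.39, -0.02 and -0.23, or 0.27, 0.26, 0.19 and -0.30 after quantile normalisation, none of which passed. After quantile normalisation none of the 7 passed in limma, and the smallest adjusted *p* was 0.0681, for *Parp2*.

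Translesion polymerases rose in 3 of the 4 measured, of 7 listed, on both scales. *Polh*, known for copying past ultraviolet-induced thymine dimers, was at 6.65, 7.19, 7.12 and 7.14 in anti-VEGF tumours, against 5.78, 5.62, 5.24 and 6.20 in control tumours. The log2 fold change was 1.32 ± 0.23 (SE, adjusted *p* = 0.00154, limma), and 0.98 after quantile normalisation. *Rev1*, the scaffold to which the other translesion polymerases bind, was at 6.25, 6.53, 6.46 and 6.42 in anti-VEGF tumours, against 5.41, 5.59, 5.11 and 5.46 in control tumours. It rose by 1.02 ± 0.17 (adjusted *p* = 0.00134, limma), and *Polk*, which extends past bulky adducts, rose by 0.99 ± 0.18 (adjusted *p* = 0.00199, limma). After quantile normalisation they rose by 0.90 and 0.85. The groups did not overlap in *Polh*, *Rev1* or *Polk*. *Poli* had 0.39, or 0.55 after quantile normalisation, with anti-VEGF tumours at 5.51 to 5.69 and control tumours at 4.70 to 5.53, and did not pass on either scale.

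All 6 measured genes of 17 for the replicative polymerases and clamp loader rose, and 3 of them also after quantile normalisation. All of the 6 but *Pole2* and *Rfc4* were in the highest tertile by level, where 51.3% of all genes rose on the deposited scale. *Rfc1*, the large subunit of the clamp loader, was at 7.04, 7.26, 7.20 and 7.14 in anti-VEGF tumours, against 5.89, 6.13, 5.70 and 6.33 in control tumours. It rose by 1.15 ± 0.18 (SE, adjusted *p* = 0.00122, limma), and its smaller partners *Rfc4* and *Rfc2* by 0.89 and 0.86. After quantile normalisation *Rfc1* rose by 0.60, and *Rfc2* had 0.41, which did not pass. *Rfc4* was at 4.99, 5.71, 5.75 and 5.83 in anti-VEGF tumours, against 4.60, 4.83, 4.79 and 4.48 in control tumours, with 1.13 after quantile normalisation. *Pole2*, a subunit of polymerase epsilon, was at 5.39, 6.12, 5.91 and 5.99 in anti-VEGF tumours, against 4.73, 5.30, 4.62 and 5.16 in control tumours. Its log2 fold change was 0.90 ± 0.22 (SE, adjusted *p* = 0.00607, limma), where genes of its level had a median of -0.12, and 1.07 after quantile normalisation. *Pold4* and *Pold3*, subunits of polymerase delta, rose by 1.14 and 1.10 but not after quantile normalisation, with 0.26 and 0.51.

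The telomere proteins rose in both measured genes of 3. *Terf1*, which binds telomeric repeats, was at 6.41, 6.75, 6.79 and 6.60 in anti-VEGF tumours, against 5.14, 5.26, 4.98 and 5.66 in control tumours. Its log2 fold change was 1.38 ± 0.19 (SE, adjusted *p* = 0.000972, limma), and 1.28 after quantile normalisation. *Terf2ip* rose by 0.72, and after quantile normalisation had 0.71, which did not pass (adjusted *p* = 0.0615, limma). *Rad21*, the cohesin subunit that holds sister chromatids together, was at 9.38, 9.52, 9.33 and 9.43 in anti-VEGF tumours, against 7.76, 8.83, 6.50 and 8.68 in control tumours. It rose by 1.47 ± 0.43 (adjusted *p* = 0.0124, limma), and had 0.69 after quantile normalisation, which did not pass.

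Other PARP genes rose in 4 of 5 measured, of 10 listed. *Parp4*, the vault PARP, was at 7.08, 7.17, 7.27 and 7.22 in anti-VEGF tumours, against 5.42, 6.15, 5.27 and 6.27 in control tumours. Its log2 fold change was 1.41 ± 0.24 (SE, adjusted *p* = 0.00147, limma), and 1.05 after quantile normalisation. *Parp6* also rose on both scales, by 0.91 and 0.77, and *Parp16* and *Parp3* rose by 0.91 and 0.68 on the deposited scale, with 0.56 and 0.34 after quantile normalisation, which did not pass. The call of *Parp3* was lost without anti-VEGF 3 or 4 (adjusted *p* = 0.0593 and 0.0631, limma). *Parp10* had 0.13 and, after quantile normalisation, -0.07, with overlapping groups. The genes that no role list takes were *Ercc6l*, a helicase of mitotic DNA bridges, with a log2 fold change of 0.06, or 0.35 after quantile normalisation, and *Fancd2os*, a gene opposite *Fancd2*, which fell by 1.00 (adjusted *p* = 0.00823, limma). *Fancd2os* was dim, at 3.79, 3.61, 3.39 and 3.40 in anti-VEGF tumours, against 4.93, 4.17, 5.12 and 3.96 in control tumours, and its log2 fold change after quantile normalisation was -0.40, which did not pass. The sources used here do not give the strand that the probes read, so a signal from *Fancd2* cannot be told apart.

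**Figure D3:**
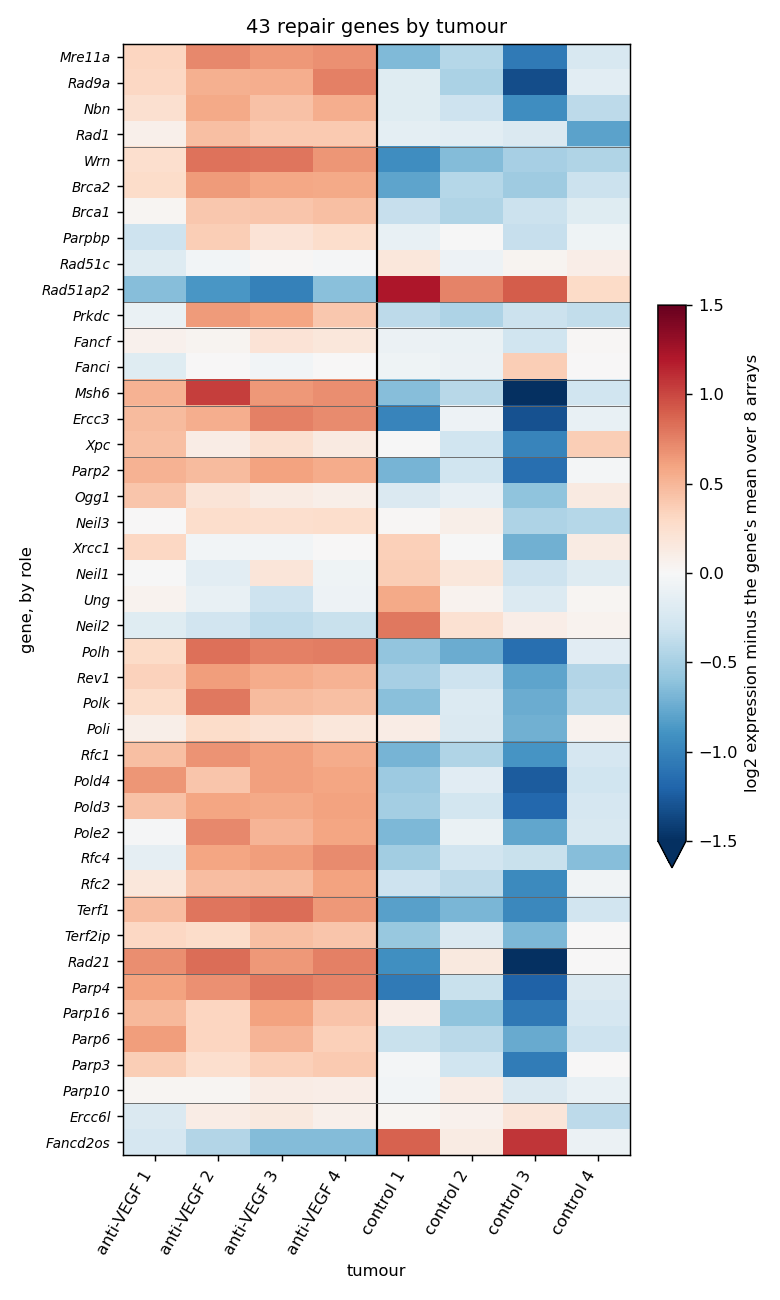
Deviation of each repair gene from its mean over the tumours, in log2 units, with genes in rows by role and anti-VEGF tumours in the left columns, control tumours in the right. The darkest blue also holds values below the scale. Anti-VEGF tumours are above the mean in most rows and control 3 is the lowest control in 31 of the 43. The 3 that fell, *Rad51ap2*, *Fancd2os* and *Neil2*, run the other way. *Ung*, *Rad51c*, *Fanci* and *Neil1* were also below 0, at -0.23, -0.12, -0.11 and -0.02, and did not pass.

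Signal level was related to the direction of change. The 43 genes were spread unevenly over the tertiles of all genes by mean level, with 2 in the lowest, 13 in the middle and 28 in the highest. In the highest tertile 22 rose and none fell, in the middle 5 rose and 1 fell, and in the lowest both fell. Of all genes, 51.3% rose and 4.55% fell in the highest tertile, 6.04% rose and 1750 of 3889 fell in the middle, and 90.3% fell in the lowest. After quantile normalisation 12 of the 28 and 5 of the 13 rose, where 13.6% and 7.02% of all genes of those tertiles did. Set beside genes of the same level, within 0.25 log2 units, 35 of the 43 were above that group's median on the deposited scale and 36 after quantile normalisation. The 5 members that rose although genes of their own level had a median below 0 were *Prkdc* at -0.48, *Rfc4* at -0.30, *Pole2* and *Rad1* at -0.12 and *Brca1* at -0.04. The 3 that fell, *Rad51ap2*, *Fancd2os* and *Neil2*, had log2 fold changes of -1.57, -1.0 and -0.58, beside medians of -1.27, -0.73 and -0.57 for genes of their level.

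**Figure D4:**
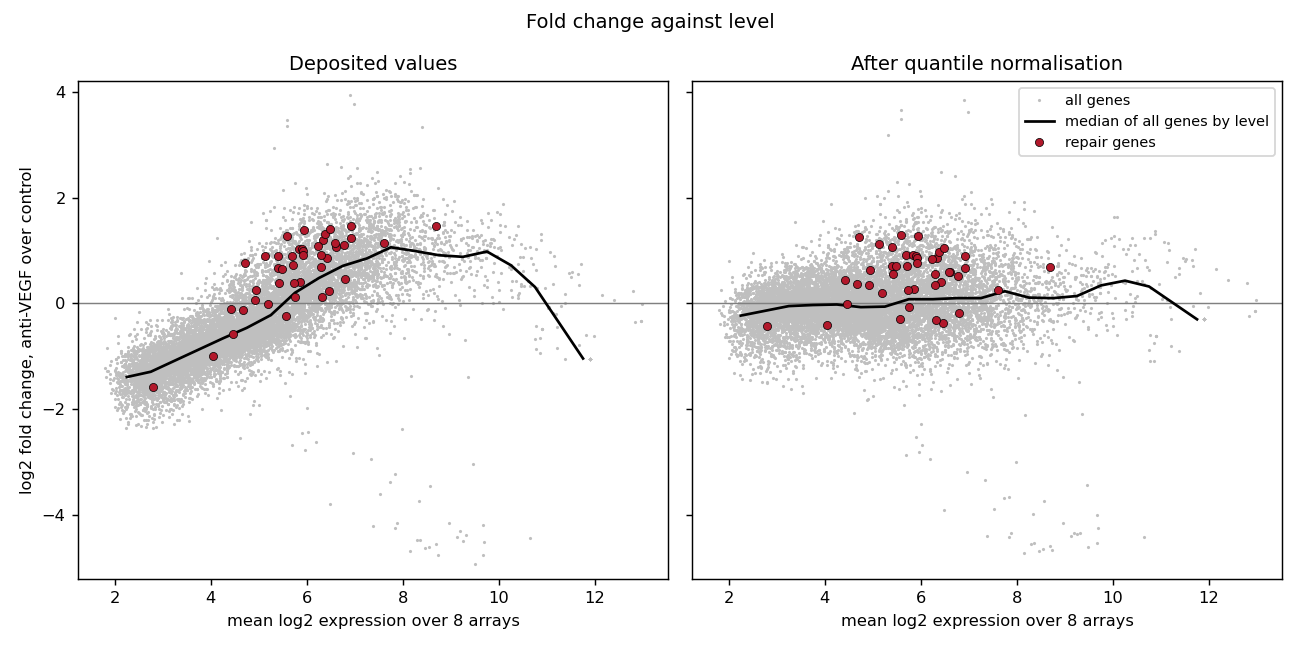
log2 fold change, anti-VEGF over control, of the 43 genes against their mean log2 level, with deposited values in the left panel, quantile-normalised values in the right, all genes in grey and their median by bins of level as a line. On the deposited scale the line climbs over the levels that hold most repair genes, and 35 of the 43 lie above the median of genes of their own level.

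Other genes of the damage response were taken from a written list of 130 symbols, older names included, of which 47 were measured. On the deposited scale 24 rose and 3 fell, with a median of 0.45, and after quantile normalisation 9 rose and 1 fell, with a median of 0.31. Of all genes 19.1% rose and 46.6% fell on the deposited scale, and 7.47% and 4.45% after quantile normalisation. Most of the 47 were in the highest tertile by level, where 51.3% of all genes rose on the deposited scale. The 3 falls were in the lowest tertile, where 90.3% of all genes fell. The 24 became 15 without anti-VEGF 3 and 14 without anti-VEGF 4, and the 3 became 5 without control 3. *Nsmce2*, a SUMO ligase of the SMC5 and SMC6 complex, was at 8.41, 8.60, 8.60 and 8.62 in anti-VEGF tumours, against 6.27, 6.56, 5.29 and 7.03 in control tumours. It rose by 2.27 (adjusted *p* = 0.000972, limma), and *Tipin*, a protein of the replication fork, rose by 1.96 (adjusted *p* = 0.000733, limma). Both passed after quantile normalisation, at 1.69 and 1.63, as did *Ddb1*, *Hltf* and *Ube2a*. The meiotic genes *Dmc1* and *Spo11* and the lymphocyte enzyme *Dntt* were the 3 that fell, by 0.97, 0.61 and 0.89, and had 0.01, 0.40 and 0.14 after quantile normalisation. The variant histone *H2ax* had -0.29, which did not pass, and fell by 1.13 after quantile normalisation (adjusted *p* = 0.0143, limma).

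Targets of p53 and genes of proliferation were listed too, as both vary with damage and cell division. Of 33 genes listed as p53 targets, 16 were measured. Of these 7 rose and 1, *Perp*, fell, and after quantile normalisation 2 rose and 3, *Sertad1*, *Gadd45a* and *Gadd45b*, fell. All of the 16 but *Fas*, *Pmaip1* and *Tigar* were in the highest tertile by level. In that tertile 51.3% of all genes rose and 4.55% fell on the deposited scale. After quantile normalisation 13.6% of its 3889 genes rose and 320 fell. *Perp* lost its call without control 1 or 4 or anti-VEGF 2, 3 or 4. *Cdkn1a*, the cell cycle inhibitor p21, rose by 1.56 and had 0.74 after quantile normalisation, which did not pass (adjusted *p* = 0.0829, limma). *Plk2* rose by 1.33 on the deposited scale and 0.90 after quantile normalisation, and *Eda2r*, a receptor of the TNF family, by 1.04 and 0.91. Of the proliferation genes, 17 of 41 were measured, and 11 rose and none fell on the deposited scale, with none of them lower even at an unadjusted *p* under 0.05. All of the 17 but *Tyms* were in the highest tertile, where 51.3% of all genes rose and 4.55% fell. After quantile normalisation none rose and 1, *Ube2c*, fell, with 6 higher and 2 lower at an unadjusted *p* under 0.05. The mean log2 level of these 17 was 6.99, 7.42, 7.35 and 7.46 in anti-VEGF tumours 1 to 4, against 6.41, 6.83, 5.52 and 6.71 in control tumours 1 to 4. The part of cell division in the repair values was not tested. Leukocyte markers had 6 rises and 3 falls among 12 measured, where 19.1% of all genes rose and 46.6% fell. The 6 that rose, *Cd68*, *Csf1r*, *Itgam*, *Ly6c2*, *S100a8* and *S100a9*, were in the highest tertile, where 51.3% of all genes rose. *Csf1r* had 0.82, below the median of 0.97 for genes of its level, and the others were above theirs. The 3 that fell, *Cd8a*, *Ms4a1* and *Ncr1*, had -1.03, -0.94 and -0.81, beside such medians of -0.55, -0.97 and -0.91. *Ms4a1* and *Ncr1* were in the lowest tertile, where 90.3% of all genes fell. Only *Itgam* and *Ly6g* rose after quantile normalisation, and none fell. *Cd8a*, *Ms4a1* and *Ncr1* then had -0.65, -0.02 and 0.10. On the deposited scale none of 5 endothelial markers passed or had an unadjusted *p* under 0.05.

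Neighbours that start within 1000 bases on the opposite strand were measured for 4 of the members. *Brix1* beside *Rad1* had a log2 fold change of 1.83 (adjusted *p* = 0.00227, limma) and *Kars* beside *Terf2ip* 1.51 (adjusted *p* = 0.00403, limma). *Tex14* beside *Rad51c* had -0.92 and *Pinlyp* beside *Xrcc1* -0.75, where these 2 members did not pass. After quantile normalisation the 4 neighbours had 1.25, 0.69, -0.18 and -0.28, and none passed.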

How the data were processed

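RNA of 8 HM-1 tumours was hybridised to Affymetrix mouse transcriptome arrays. The table that the authors deposited gives log2 values of 13266 probe sets, for which the sources name robust multi-array average normalisation. That method includes a quantile step over arrays, yet the standard deviation over genes ran from 1.117 to 2.083 between the arrays, so how the table was made is not settled. The genome build of the probes and the choice of the deposited probe sets are not given in the sources used here. Gene symbols came from the annotation of the platform and were checked against RefSeq (0 changed). Of them 11743 carried 1 symbol, 800 several and 723 none. The highest-mean probe set stood for a gene, which gave 11667 genes.

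Groups were compared with limma 3.58.1 in R 4.3.3 (lmFit and eBayes, treatment as the only term), with Benjamini-Hochberg adjustment over all genes at 0.05. Scripts were tested on simulated data, in which each gene had the same spread in both groups, unlike in these data. Alternatives were quantile normalisation, cyclic loess, median centring, filters on dim genes, array weights, trended and robust eBayes, the Mann-Whitney test, the mean of probe sets, a replicate block and leaving out each array. Leaving out arrays after quantile normalisation, and the block after it, were added after seeing the data. Genes named were those called in the same direction on both scales, the 10 largest and 10 smallest changes called, the 3 smallest *p* of each role, a written set of core repair genes and the 4 smallest *p* of each other list. Other genes named, among them the head-to-head neighbours, were chosen after their values were seen. Members, roles and lists were chosen with earlier results of these data known. Arrays have no read depth, so their number and the signal of dim genes limit the precision.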

Additional observations from a re-analysis of the deposited data

Results flagged for a closer look

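In 9 of the 88 groups of 4 tumours examined, 1 tumour lay far from the other 3, with a gap, as a share of the group's range, above Dixon's critical value for 4 samples. Chance would give this in about 1 of 20 independent groups. These groups share the same 8 arrays, so their number cannot be set against that rate. The share over all genes was not counted. In 8 of the 9 the tumour was anti-VEGF 1. Over all genes its highest correlation with another array was 0.985, against 0.994 to 0.9958 for anti-VEGF 2 to 4. On the log2 scale it was lower than the other anti-VEGF tumours in *Brca1* at 5.51 (others 5.89 to 5.93), *Brca2* at 6.10 (others 6.40 to 6.47) and *Mre11a* at 6.65 (others 6.98 to 7.05). It was also lower in *Neil3* at 5.74 (others 5.99 to 6.00), *Polh* at 6.65 (others 7.12 to 7.19), *Rad1* at 5.48 (others 5.80 to 5.85) and *Rfc4* at 4.99 (others 5.71 to 5.83). In *Xrcc1* it was higher, at 6.63 (others 6.28 to 6.33). The ninth was control 4 in *Rad1*, at 4.60 (others 5.19 to 5.26). Anti-VEGF 1 also had the highest acinar level of its group, 9.90 on the log2 scale, and the part of that in these values was not tested.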

How the results depend on the processing

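On the deposited scale the 27 rises and 3 falls among the repair genes became 28 and 3 with array weights or the Mann-Whitney test, 27 and 3 with trended and robust eBayes or with the mean of probe sets, and 26 to 29 and 2 to 3 when 1 array was left out. Quantile normalisation gave 17 and 0, cyclic loess 21 and 0, and median centring 35 and 1. Without the lowest tertile of genes 1 fell, and without genes below the median level none did. The members' median of 0.86 became 0.60, 0.49 and 1.27 under quantile normalisation, cyclic loess and median centring, and lay between 0.71 and 0.90 with 1 array left out. Without 1 array after quantile normalisation the rises numbered 7, 19, 17 and 21 (controls 1 to 4) and 13, 0, 0 and 0 (anti-VEGF 1 to 4), and the falls 0 throughout.

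The labels' replicate numbers were treated as names. Deviations of same-numbered tumours correlated at 0.1904, 0.1261, -0.03672 and 0.163, and anti-VEGF 3 and 4 correlated best with another number. With the replicate block the counts were 27 and 3 and the median 0.86, and after quantile normalisation with the replicate block 10 and 0.

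Of the other damage response genes, 24 rose and 3 fell. Quantile normalisation gave 9 and 1, cyclic loess 13 and 1, the replicate block 22 and 3, and array weights 6 falls. Leaving out the lowest tertile or the genes below the median level left 0 falls, and leaving out 1 array gave 14 to 23 rises and 3 to 5 falls, with 15 without anti-VEGF 3, 14 without anti-VEGF 4 and 5 falls without control 3. Of the p53 targets, 7 rose and 1 fell. Quantile normalisation gave 2 and 3, cyclic loess 3 and 5, median centring and the Mann-Whitney test 0 falls, and leaving out 1 array 7 to 8 rises and 0 to 2 falls (0 without control 1 or 4 or anti-VEGF 2, 3 or 4, and 2 without control 3). Of the proliferation genes, 11 rose and 0 fell. Quantile normalisation gave 0 and 1, cyclic loess 4 and 1, and leaving out 1 array 9 to 13 rises.

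Members that turned direction under an alternative had not passed on the deposited scale. After quantile normalisation the log2 fold changes were -0.37 for *Fancf*, 0.45 for *Fanci*, 0.19 for *Neil1*, -0.07 for *Parp10*, 0.36 for *Rad51c*, -0.18 for *Xpc* and -0.32 for *Xrcc1*. After cyclic loess they were -0.33 for *Fancf*, 0.48 for *Fanci*, 0.13 for *Neil1*, -0.06 for *Parp10*, 0.34 for *Rad51c*, -0.24 for *Xpc* and -0.38 for *Xrcc1*. Median centring gave 0.31 for *Fanci*, 0.39 for *Neil1*, 0.30 for *Rad51c* and 0.19 for *Ung*, and array weights 0.02 for *Fanci* and -0.04 for *Xrcc1*. With 1 array left out, *Neil1* ranged between -0.13 and 0.10 (0.03 without anti-VEGF 2 or control 2, 0.10 without control 1), *Xrcc1* between -0.09 (without control 3) and 0.27, and *Ercc6l* between -0.07 (without control 4) and 0.14. The call of *Neil2* was lost without anti-VEGF 2, 3 or 4 (limma adjusted *p* = 0.0563, 0.0649 and 0.0608) and *Parp3* without anti-VEGF 3 or 4 (0.0593 and 0.0631). *Neil3* was gained without control 2, and *Ogg1* and *Xpc* without control 4. The causes were not tested. Keeping the annotation's own symbols changed no symbol and gave no separate values, and the Mann-Whitney test gives no median. Dim genes, and 4 arrays a group, limit what can be seen.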
